A study of Arabidopsis thaliana with 48 samples.

Results

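Shoot apices of the quintuple mutant svp flc ft tsf soc1 were compared with wild-type (WT) apices of Arabidopsis thaliana at 3 weeks of short days, the youngest age sampled. The comparison rests on 6 of the 48 libraries of the series, 3 of the quintuple line and 3 of WT, taken by their genotype and age labels. The quintuple line is mutated in SVP, FLC, FT, TSF and SOC1, whose alleles are not named in the sources used here, and WT is the Col accession. Plants of both genotypes were grown at 21 °C with 8 h of light and 16 h of darkness, and the labels name no other treatment. Each library was made from total RNA of 15 pooled shoot apices, described as enriched for the apical meristem, so a library averages over plants and over the cell types of an apex. In such bulk samples fewer cells of a type and less RNA per cell cannot be told apart. The other libraries of the series are WT and quintuple at 4, 5 and 6 weeks, and the lines chr4-2 and qem2 at all 4 ages. Reads assigned to genes ranged from 11653740 to 19748987 in the quintuple libraries and from 11032168 to 15335325 in the WT libraries.

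In Arabidopsis the shoot apical meristem makes leaves until floral signals convert it to a meristem that makes flowers. SVP and FLC are MADS-box repressors that hold this transition back, FT and TSF are the mobile florigen proteins made in leaves, and SOC1 is a MADS-box activator in the meristem on which both sides act. At the apex florigen works together with the bZIP factor FD, while the SPL factors rise with plant age and promote flowering by a route partly separate from florigen. MADS-box proteins bind DNA at CArG boxes, short AT-rich motifs flanked by a pair of C and a pair of G.

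Few genes differed at this age. Of 19566 tested genes, 45 were higher in quintuple (0.230% of tested genes) and 34 were lower (0.174%) at a Benjamini-Hochberg adjusted p under 0.05 in edgeR's quasi-likelihood fit, here called. The higher genes included the flowering regulators FD and SPL9, the bud-outgrowth repressor BRC1, the meristem gene WOX9, and 4 polyubiquitin genes. The lower genes included 6 class III peroxidases, a laccase, cell-wall enzymes and lipid transfer proteins. The median log2 fold change over all tested genes was -0.00089. In 78 of the 79 called genes the 3 quintuple libraries did not overlap the 3 WT libraries, against 9.13% of all tested genes that were higher and 8.87% that were lower without overlap. The calls were made from these same libraries, so the lack of overlap describes the called genes and is no separate support for them. Levels below are in CPM, a gene's reads scaled to the TMM-corrected size of its library, given for quintuple replicates 1, 2 and 3 and then for WT replicates 1, 2 and 3. Changes are log2 fold changes of quintuple over WT with their standard error (SE).

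**Figure D1:**
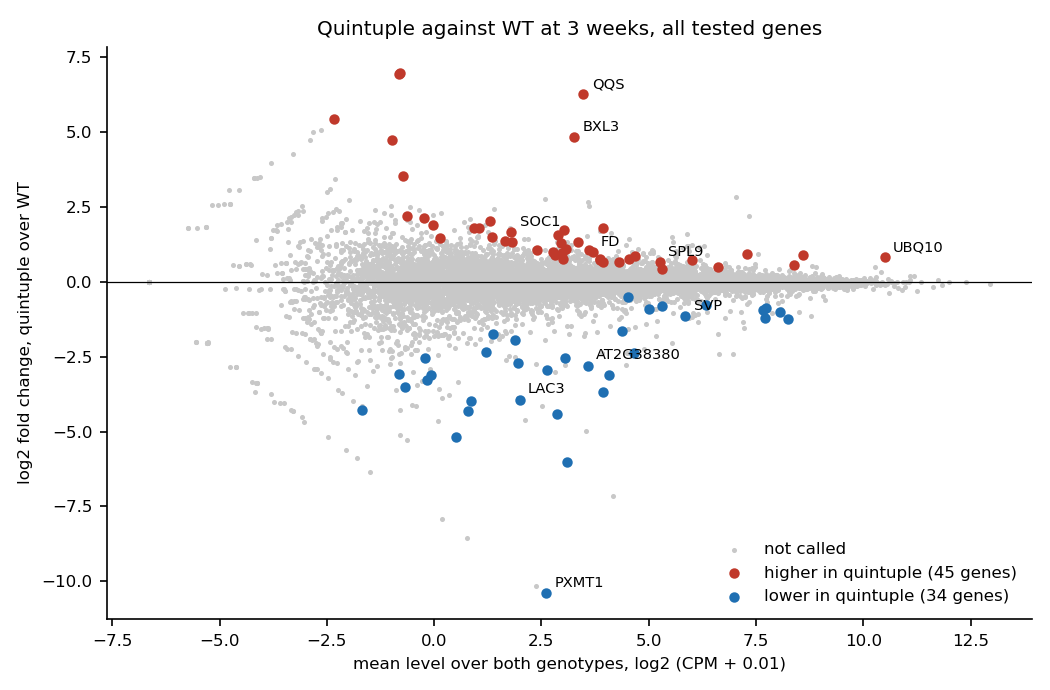
Each point is a tested gene, with its mean level over the 6 libraries on the x axis (log2 of CPM + 0.01) and its log2 fold change of quintuple over WT at 3 weeks on the y axis. The 45 genes called higher are red and the 34 called lower are blue. Fitted values reach 6.97 (AT1G22460) among the rises and -6.03 among the falls apart from PXMT1. The value of PXMT1, which had no read in quintuple, depends on the prior count of the fit. So do those of AT1G22460, AT1G34440 and AT4G04601, which had no read in WT.

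One library stood apart. WT 1 held 105 tested genes at more than 4 times the level of both other WT libraries, against 4 for WT 2, 1 for WT 3, and 1 to 6 for the quintuple libraries. The 16 genes listed for wounding and jasmonate summed to 265, 369 and 359 CPM in quintuple, against 1295, 353 and 425 CPM in WT. For salicylic acid defence the sums were 139, 127 and 140 CPM in quintuple, against 231, 141 and 144 CPM in WT. Among the 34 lower genes, GSTF7, PXMT1, NIT2, Prx37 and AT4G16260 were over 4 times higher in WT 1 than in either other WT library. Without WT 1 the fit called 22 genes higher and 15 lower, and 36 of its 37 calls were among the 79. Leaving out each of the other 5 libraries kept 30 to 56 of the 79. In all 6 such fits 23 genes were called, 15 higher and 8 lower.

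**Figure D2:**
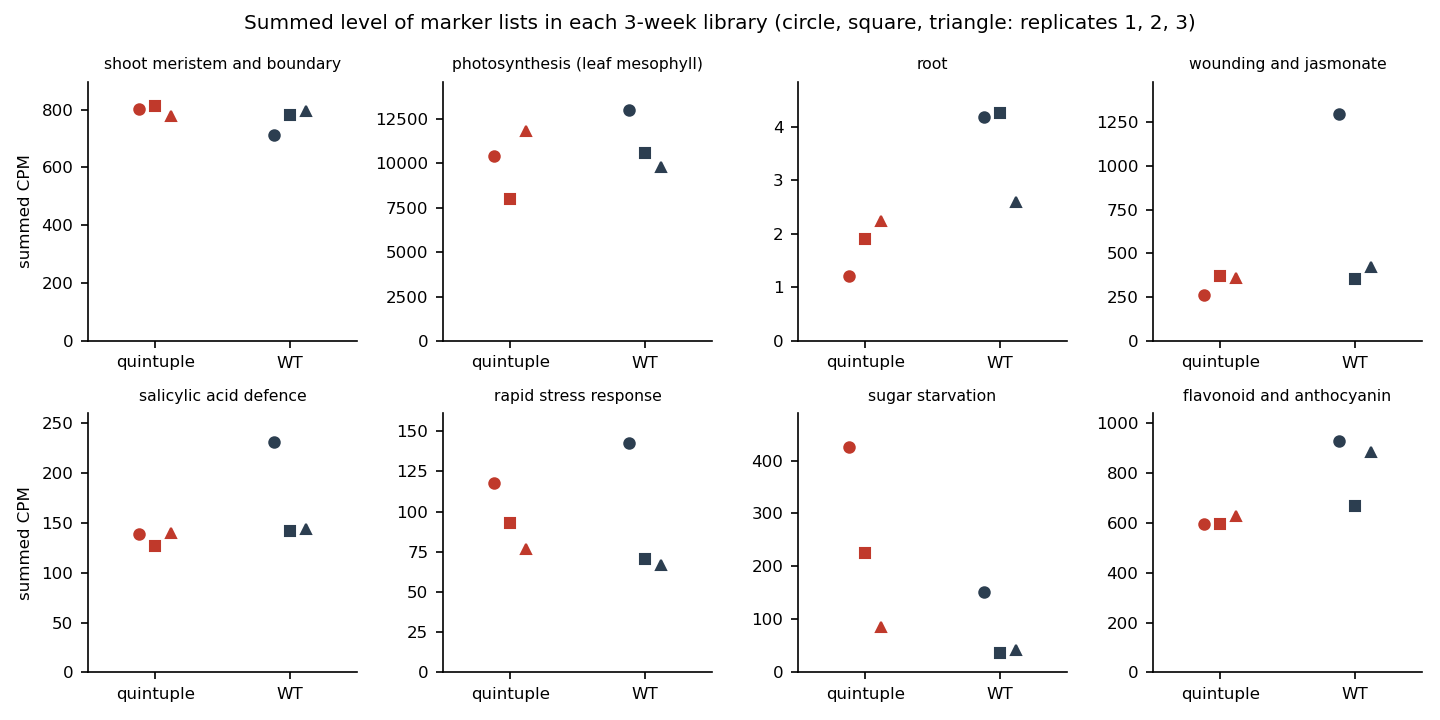
Each panel shows the summed CPM of a gene list in the 3 quintuple (red) and 3 WT (dark) libraries at 3 weeks, on an axis from 0. WT 1 (circle) lies alone at the top of the wounding and jasmonate panel at 1295 CPM, while shoot meristem and boundary genes sum to 779 to 811 CPM in quintuple and 713 to 794 CPM in WT.

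Levels of the mutated loci come before other genes. SVP (AT2G22540, chr2:9579647-9583901, plus strand) had 36.8, 33.2 and 37.7 CPM in quintuple, against 82.8, 77.2 and 79.0 CPM in WT. It fell in quintuple (log2 -1.15, SE 0.14, adjusted p = 3.66e-06) and kept that call with each library left out. SOC1 (AT2G45660, chr2:18807505-18811125, minus strand) had 4.95, 4.88 and 6.00 CPM in quintuple, against 1.67, 1.23 and 2.04 CPM in WT. Reads of SOC1 thus rose in quintuple (log2 1.65, SE 0.28, adjusted p = 0.00102), although the line is labelled soc1. The positions of the mutations are not given in the sources used here, so these levels do not test the genotype: a transcript can still be counted where its gene is mutated. FLC (AT5G10140) had 7.68, 8.55 and 5.11 CPM in quintuple, against 12.9, 20.3 and 12.3 CPM in WT. The groups did not overlap, but the gene was not called (log2 -1.08, SE 0.38, adjusted p = 0.353). The authors' deposited table for 3 weeks lists FLC as lower (log2 -1.08, adjusted p = 0.00477). FT had 0 CPM, 0.283 and 0.0896 CPM in quintuple and no read in WT, and TSF had no read in quintuple, against 0.0929, 0 and 0.0680 CPM in WT. Both were too low to be tested.

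Among genes that promote flowering, FD and SPL9 rose. FD (AT4G35900, chr4:17004382-17006462, plus strand), the bZIP partner of florigen, had 19.8, 16.8 and 15.0 CPM in quintuple, against 8.64, 6.52 and 10.8 CPM in WT. Every quintuple library was above every WT library (log2 0.98, SE 0.14, adjusted p = 3.44e-05), also with any 1 library left out. SPL9 (AT2G42200), a target of miR156 in the age pathway, had 46.0, 42.8 and 51.5 CPM in quintuple, against 25.3, 31.4 and 32.8 CPM in WT. The groups lay apart (log2 0.65, SE 0.12, adjusted p = 0.00468), and without WT 1 the adjusted p was 0.0988. These were 2 of the 16 tested genes of the list, where 0.230% of all tested genes were called higher. Without WT 1 the list had 1 call. Its median log2 fold change was 0.44, against -0.00089 for all tested genes and 0.42 for the list without WT 1. The other members did not pass, and over the 16 genes 12 values were above 0 and 3 below, where 49.7% of all tested genes were above 0. AGL19, a MADS-box relative of SOC1, had 5.53, 5.23 and 6.72 CPM in quintuple, against 3.53, 2.27 and 3.74 CPM in WT (log2 0.85, adjusted p = 0.0977). AGL42, of the SOC1 clade, had 7.37, 7.49 and 8.42 CPM in quintuple, against 3.99, 5.86 and 4.49 CPM in WT (log2 0.70, adjusted p = 0.294). CO, the photoperiod activator of FT, had 1.63, 2.12 and 1.17 CPM in quintuple, against 0.464, 1.13 and 0.680 CPM in WT (log2 1.13, adjusted p = 0.419). On the other side SPL4 differed by log2 -1.15 (adjusted p = 0.553) and SPL5 by -0.24 (adjusted p = 1), both factors of the age pathway. AGL72, of the SOC1 clade, had a single library with reads (WT 1, 0.0929 CPM), and AGL71 had none. FUL, a MADS-box gene of the inflorescence, had 0.526, 0.495 and 0.717 CPM in quintuple, against 0.371, 0.850 and 0.476 CPM in WT (log2 0.03, adjusted p = 1).

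No gene of the floral repressor list passed (15 tested, median log2 -0.04), nor of floral meristem and organ identity (8 tested, median 0.53). The meristem identity factor LFY had 1.37, 1.84 and 1.52 CPM in quintuple, against 0.836, 1.04 and 0.952 CPM in WT (log2 0.73, adjusted p = 0.608). AP1, which marks young flowers, had a read in quintuple replicate 2 alone, at 0.0707 CPM. TFL1, a repressor of floral identity in the shoot, had 2.53, 3.39 and 2.87 CPM in quintuple, against 0.929, 1.23 and 0.952 CPM in WT. Its groups lay apart, yet it was not called (log2 1.49, adjusted p = 0.0895), while the authors' deposited table lists it as higher (adjusted p = 0.00527).

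The MADS-box factor AGL15 (AT5G13790), known for its part in embryos and in repressing flowering, rose in quintuple. It had 11.1, 11.7 and 11.5 CPM in quintuple, against 4.46, 6.71 and 4.97 CPM in WT (log2 1.09, SE 0.23, adjusted p = 0.0118). The call was lost without WT 1 (adjusted p = 0.146), WT 3, quintuple 1 or quintuple 2. A pair of B3-domain genes rose as well. AT4G34400 had 12.8, 17.9 and 12.6 CPM in quintuple, against 5.48, 6.33 and 5.65 CPM in WT (log2 1.31, SE 0.16, adjusted p = 3.66e-06). AT3G06220 had 9.58, 8.62 and 8.96 CPM in quintuple, against 4.46, 5.57 and 3.88 CPM in WT (log2 0.98, adjusted p = 0.00303, and 0.0553 without WT 3). Light signalling gave a single call out of 10 tested genes, where 0.230% of all tested genes were called higher. The called gene was PIF3, a bHLH factor that binds phytochrome. PIF3 had 23.3, 29.0 and 21.0 CPM in quintuple, against 14.6, 16.8 and 14.9 CPM in WT (log2 0.66, SE 0.13, adjusted p = 0.00571). That call was lost without WT 1 (adjusted p = 0.0635) and without quintuple 2 (adjusted p = 0.141).

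Regulators of axillary buds, meristems and elongation were among the largest rises, all at low levels. BRC1 (AT3G18550), a TCP factor that keeps axillary buds from growing out, had 1.53, 1.91 and 1.17 CPM in quintuple, against 0.464, 0.189 and 0.544 CPM in WT (log2 1.88, SE 0.46, adjusted p = 0.0489). WOX9 (AT2G33880), a homeobox gene needed for meristem growth, had 1.21, 1.63 and 1.25 CPM in quintuple, against 0.279, 0.378 and 0.272 CPM in WT (log2 2.12, SE 0.45, adjusted p = 0.0146). PRE1 (AT5G39860), an atypical bHLH protein that promotes cell elongation, had 3.00, 2.97 and 3.58 CPM in quintuple, against 0.929, 0.567 and 1.16 CPM in WT (log2 1.81, adjusted p = 0.0240). The groups lay apart in all 3 genes, but each call was lost when certain single libraries were left out, with adjusted p of up to 0.265 for BRC1, 0.114 for WOX9 and 0.161 for PRE1. BRC1 lost it without any library but quintuple 3, WOX9 without WT 1, WT 3 or quintuple 2, and PRE1 without any of the 6. GSO2 (AT5G44700), a receptor kinase, had 1.05, 1.27 and 0.807 CPM in quintuple, against 0.464, 0.0945 and 0.136 CPM in WT (log2 2.19, adjusted p = 0.0431, and up to 0.286 without WT 2, WT 3, quintuple 1 or quintuple 2). None of the 23 listed shoot meristem and boundary genes passed (median log2 0.14). STM, which maintains the meristem, had 53.6, 48.5 and 47.1 CPM in quintuple, against 41.1, 46.6 and 46.9 CPM in WT. The stem-cell genes WUS and CLV3 were detected in all 6 libraries, at 0.353 to 0.448 CPM (WUS) and 0.269 to 0.579 CPM (CLV3) in quintuple, against 0.186 to 0.340 CPM and 0.340 to 0.650 CPM in WT.

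The largest rises were of genes near zero in WT. QQS (AT3G30720, chr3:12349047-12349933, plus strand), an Arabidopsis-specific gene that affects starch content, had 10.2, 16.7 and 39.2 CPM in quintuple, against 0.371, 0.0945 and 0.340 CPM in WT (log2 6.25, SE 0.60, adjusted p = 6.89e-08). BXL3 (AT5G09730), a cell-wall beta-xylosidase, had 16.9, 12.7 and 26.1 CPM in quintuple, against 0.557, 0.661 and 0.680 CPM in WT (log2 4.84, SE 0.33, adjusted p = 1.5e-12). QQS varied more among the quintuple libraries than BXL3, and both were called with every library left out in turn. AT1G22460, of an O-fucosyltransferase family, had 1.32, 0.636 and 1.43 CPM in quintuple and no read in WT. Set against a floor of 3 reads over the WT libraries it was at least 13.6-fold higher (adjusted p = 0.000123). AT1G34440, an uncharacterised gene, had 0.789, 1.55 and 0.986 CPM in quintuple and no read in WT, at least 13.0-fold higher (adjusted p = 0.00195). Both kept their call without any 1 library. AT4G04601, likewise without a read in WT, had 0.368, 0.495 and 0.269 CPM in quintuple (at least 4.61-fold higher, adjusted p = 0.0437), and lost the call whichever library was left out (adjusted p up to 0.193). PAP16, a purple acid phosphatase, had 3 reads over the WT libraries, and the ratio of quintuple to WT was 12.5 (95% counting interval 4.01 to 62.7, adjusted p = 0.00471, and 0.0708 without WT 3). Intervals and floors rest on reads pooled over the libraries of each group. They cover counting error only and leave out the spread between libraries. Reads were also amplified, and no molecular identifiers are stated.

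Other rises were of enzymes, transporters and a chaperone. CYP706A3 (AT5G44620), a cytochrome P450 of terpene oxidation in flowers, had 12.7, 12.7 and 11.9 CPM in quintuple, against 3.53, 3.97 and 3.88 CPM in WT (log2 1.71, SE 0.21, adjusted p = 3.66e-06). AT4G21870, a small heat-shock-like chaperone, had 28.5, 19.6 and 22.1 CPM in quintuple, against 9.84, 6.14 and 4.69 CPM in WT (log2 1.78, SE 0.28, adjusted p = 0.000331). FUR1 (AT4G05120), a nucleoside transporter, had 32.1, 28.1 and 27.1 CPM in quintuple, against 18.5, 15.0 and 17.6 CPM in WT (log2 0.77, SE 0.10, adjusted p = 2.24e-05). These 3 genes kept their calls with each library left out. YSL7 (AT1G65730), of the family of metal-nicotianamine transporters, had 3.79, 2.54 and 2.51 CPM in quintuple, against 0.650, 1.04 and 0.884 CPM in WT (log2 1.78, adjusted p = 0.00613, and up to 0.105 without WT 1 or quintuple 1). AT3G05150, a sugar-transporter-like gene of the major facilitator family, had 4.95, 4.10 and 2.69 CPM in quintuple, against 0.929, 1.23 and 0.748 CPM in WT (log2 2.03, adjusted p = 0.00729, and up to 0.0945 without WT 1, WT 3 or quintuple 1). It lies next to RBK2, a ROP-binding kinase that was also called (11.1, 11.3 and 10.6 CPM in quintuple, against 5.20, 3.87 and 4.35 CPM in WT), though not without WT 2, WT 3, quintuple 1 or quintuple 2.

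Polyubiquitin genes, which encode head-to-tail repeats of ubiquitin, were high in both genotypes. Of 9 tested genes described as ubiquitin, polyubiquitin or ubiquitin family protein, 4 were called, all higher in quintuple. Over all tested genes 0.230% were called higher. The family was looked at because it had 3 or more called members, so its share is no separate support. The median log2 fold change of the 9 was 0.51, and without WT 1 there were 2 calls. UBQ4 had 223, 227 and 159 CPM in quintuple, against 105, 104 and 114 CPM in WT (log2 0.91, SE 0.13, adjusted p = 3.44e-05). UBQ10 had 2102, 1870 and 1580 CPM in quintuple, against 1084, 1008 and 1057 CPM in WT (log2 0.82, SE 0.14, adjusted p = 0.000626). The groups lay far apart in both, and both kept their call without any 1 library. UBQ14 had 527, 525 and 454 CPM in quintuple, against 255, 288 and 276 CPM in WT (adjusted p = 0.00571, and up to 0.0663 without WT 1 or quintuple 1). UBQ3 had 420, 473 and 315 CPM in quintuple, against 238, 282 and 291 CPM in WT (log2 0.57, adjusted p = 0.0452), and was called in a single one of the 6 fits with a library left out, that without quintuple 3. UBQ11 averaged 557 ± 71.3 CPM in quintuple and 393 ± 27.3 CPM in WT (SD, n = 3 each) and was not called (log2 0.51, adjusted p = 0.262). UBQ5, UBQ6 and UBQ7, of which each encodes ubiquitin fused to another protein, differed by log2 0.10, 0.06 and -0.08 and did not pass. Nor did ATGP4, the remaining gene (log2 0.10). The polyubiquitin genes are near-identical over long stretches, so the split of reads among them is uncertain.

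**Figure D3:**
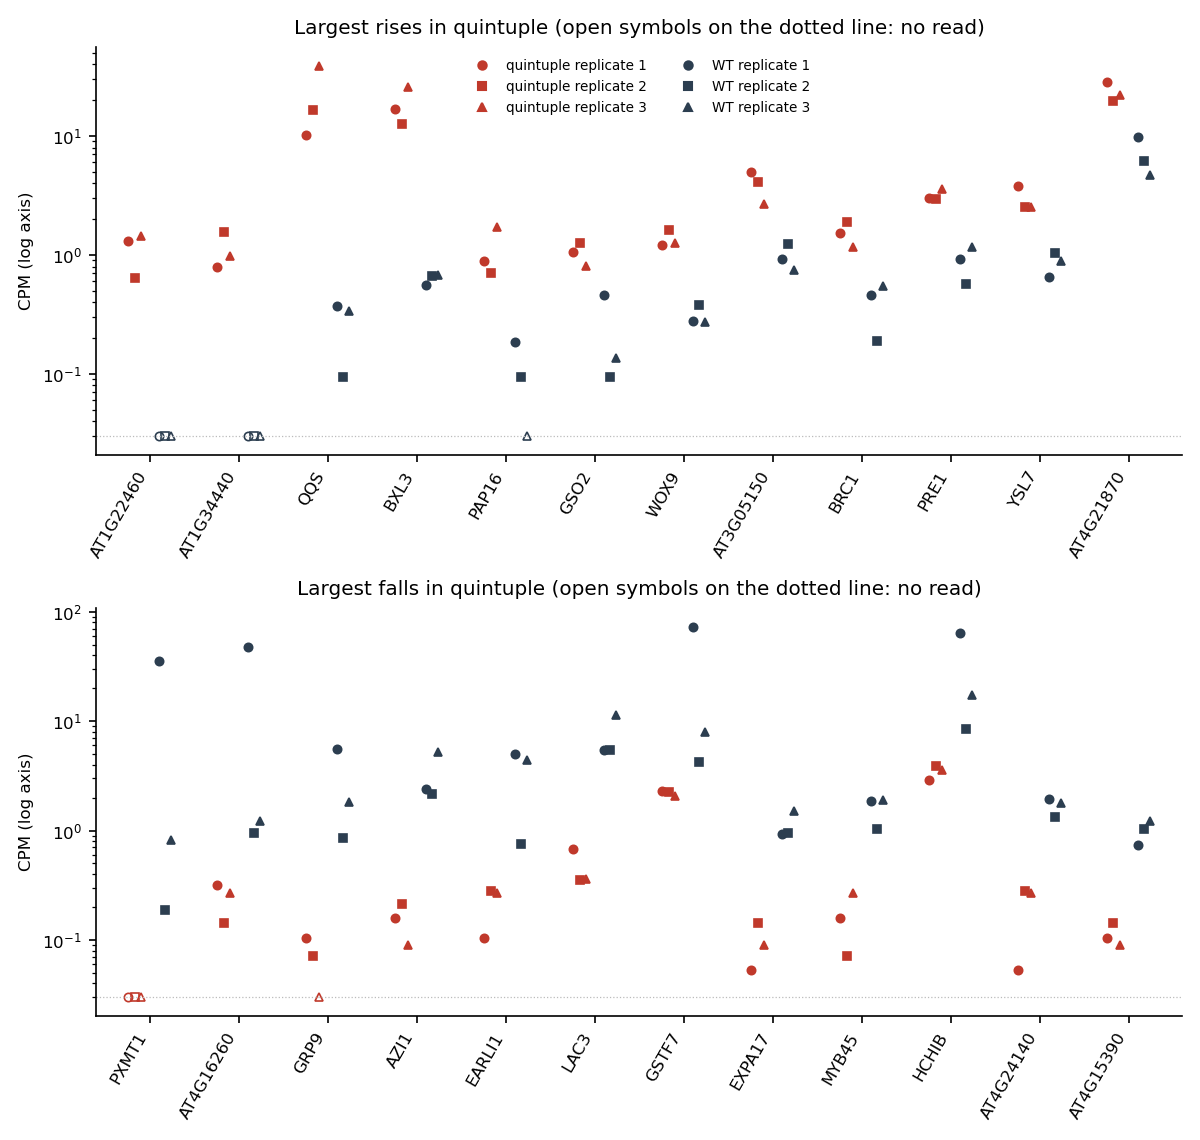
CPM on a log axis in each 3-week library for the 12 largest rises (top) and 12 largest falls (bottom) among called genes with groups that do not overlap and at least 1 CPM in the higher group; red is quintuple and dark is WT, and symbols mark replicates. WT 1 (dark circle) is far above the other WT libraries for PXMT1, AT4G16260, GSTF7 and HCHIB, while AZI1, LAC3, EXPA17 and MYB45 are high in all 3 WT libraries.

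Class III peroxidases, secreted haem enzymes that cross-link or loosen cell walls, were 1 of 3 gene families looked at by RefSeq description because each had 3 or more called members. Of 40 tested peroxidase genes 6 were lower and 1, AT2G22420, was higher in quintuple, where 0.174% and 0.230% of all tested genes were lower and higher, and the median log2 fold change of the 40 was -0.48. Without WT 1 the counts were 3 lower and none higher, and the median was -0.34. The promoters of a pair of these genes are shown because each holds a CArG box, the motif that SVP, FLC and SOC1 bind as MADS-box proteins. They are the 250 bases before the annotated start in RefSeq TAIR10.1, 5′ to 3′ on the gene's strand, with the CArG box in capitals.
AT2G18150 promoter, chr2:7893710-7893959, minus strand: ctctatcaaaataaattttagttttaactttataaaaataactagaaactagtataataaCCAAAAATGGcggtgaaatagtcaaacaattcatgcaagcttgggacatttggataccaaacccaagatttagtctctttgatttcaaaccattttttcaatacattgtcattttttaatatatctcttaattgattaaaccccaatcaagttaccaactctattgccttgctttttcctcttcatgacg
AT4G36430 promoter, chr4:17206034-17206283, minus strand: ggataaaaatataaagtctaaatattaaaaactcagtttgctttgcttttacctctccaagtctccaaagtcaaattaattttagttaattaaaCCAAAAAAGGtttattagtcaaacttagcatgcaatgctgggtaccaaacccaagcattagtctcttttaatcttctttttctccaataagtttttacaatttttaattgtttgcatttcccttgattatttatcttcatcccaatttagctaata
The box lies 190 bases before the start in AT2G18150 and 156 in AT4G36430. Both strands were searched, for a motif that reads the same on either. Among the 79 called genes 4 had a CArG box in this window (5.06%), against 2.68% of 19481 tested genes and 2.52% of 27443 protein-coding genes. The other 2 were the higher genes EXL7 and AT5G10740, whose boxes lie 155 and 48 bases before the start, with 10 bases on each side as follows.
EXL7: gcaaattgtaCCATTTATGGattatcttca
AT5G10740: ggtacatcctCCAAATTTGGttgacttgtg
A match describes the letters of the window and is not evidence of binding.

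The called peroxidases differed in how firmly they separated the genotypes. AT2G18150 had 3.10, 2.33 and 1.70 CPM in quintuple, against 14.7, 12.6 and 15.4 CPM in WT (log2 -2.55, SE 0.33, adjusted p = 7.06e-06). AT4G36430 had 0.737, 0.990 and 1.34 CPM in quintuple, against 6.96, 6.80 and 6.19 CPM in WT (log2 -2.72, SE 0.52, adjusted p = 0.00530, and up to 0.0983 without quintuple 1 or 2). AT2G38380 had 3.47, 2.76 and 2.69 CPM in quintuple, against 22.4, 18.7 and 21.6 CPM in WT (log2 -2.80, SE 0.40, adjusted p = 6.23e-05). In these 3 genes the 3 WT libraries lay close together, WT 1 included, and AT2G18150 and AT2G38380 kept their calls without any 1 library. AT2G38390, the gene next to AT2G38380, had 1.68, 1.2 and 1.61 CPM in quintuple, against 5.11, 5.57 and 6.74 CPM in WT (log2 -1.95, adjusted p = 0.03, and up to 0.225 in the 6 fits with a library left out). Because the neighbours are related copies, the split of reads between them is uncertain. PRXCB, a peroxidase of the oxidative burst, had 128, 128 and 126 CPM in quintuple, against 425, 188 and 268 CPM in WT (log2 -1.21, adjusted p = 0.0310, and 0.532 without WT 1). Prx37 had 1.84, 1.84 and 0.448 CPM in quintuple, against 26.8, 3.59 and 2.79 CPM in WT. Without WT 1 its change was log2 -1.16 and not called, and the call was also lost without any 1 quintuple library. The one member that rose, AT2G22420, had 20.1, 19.2 and 15.4 CPM in quintuple, against 10.2, 11.3 and 10.7 CPM in WT (log2 0.77, adjusted p = 0.0452). It lost its call without any library but quintuple 3, with adjusted p of up to 0.322.

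**Figure D4:**
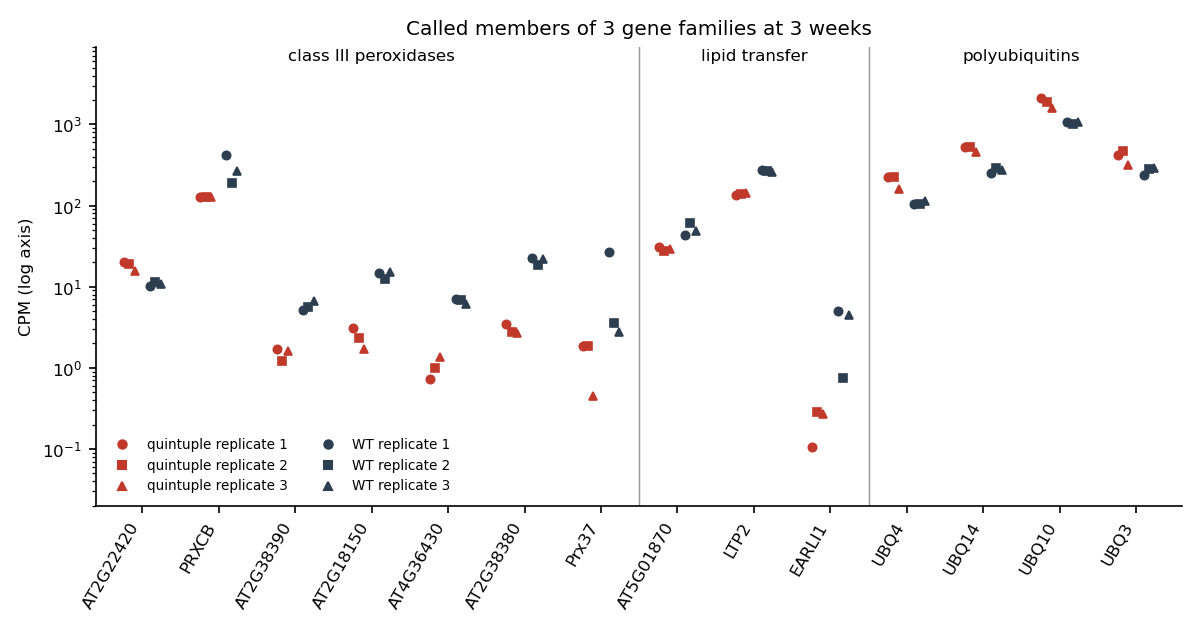
CPM on a log axis for the called members of the class III peroxidase, lipid transfer and polyubiquitin families in each 3-week library, quintuple (red) left of WT (dark). All but 1 of the 7 peroxidases and all 3 lipid transfer genes lie lower in quintuple, and the 4 polyubiquitin genes lie higher.

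Other genes fell with all 3 WT libraries well above all 3 quintuple libraries. LAC3 (AT2G30210), a laccase, an oxidase that can polymerise lignin, had 0.684, 0.353 and 0.358 CPM in quintuple, against 5.48, 5.48 and 11.4 CPM in WT (log2 -3.93, SE 0.53, adjusted p = 4.33e-05). AZI1 (AT4G12470), a lipid-transfer-like protein of systemic defence priming, had 0.158, 0.212 and 0.0896 CPM in quintuple, against 2.41, 2.17 and 5.17 CPM in WT (log2 -4.31, SE 0.78, adjusted p = 0.00244). XTH31 (AT3G44990), which remodels xyloglucan, had 9.79, 9.12 and 10.9 CPM in quintuple, against 27.9, 29.5 and 36.3 CPM in WT (log2 -1.66, SE 0.31, adjusted p = 0.00378). All 3 were called with each library left out, and so was GH9B13, an endoglucanase-like gene, with 152, 162 and 139 CPM in quintuple, against 258, 298 and 274 CPM in WT (log2 -0.88, adjusted p = 0.000543). EXPA17, an expansin, had 0.0526, 0.141 and 0.0896 CPM in quintuple, against 0.929, 0.945 and 1.5 CPM in WT (log2 -3.52, adjusted p = 0.0122, and up to 0.162 without WT 3, quintuple 1 or quintuple 2). MYB45, a MYB factor, had 0.158, 0.0707 and 0.269 CPM in quintuple, against 1.86, 1.04 and 1.91 CPM in WT (log2 -3.27, adjusted p = 0.0110, and up to 0.141 without WT 1, WT 3, quintuple 1 or quintuple 2). The acyltransferase-like AT4G15390 averaged 0.112 ± 0.0265 CPM in quintuple and 1.00 ± 0.243 CPM in WT (SD, n = 3 each, adjusted p = 0.0329). The hydrolase-like AT4G24140 averaged 0.201 ± 0.129 CPM in quintuple and 1.68 ± 0.323 CPM in WT (SD, n = 3 each, adjusted p = 0.0347). These last genes lost their calls in 6 and 5 of the 6 fits with a library left out, AT4G24140 keeping it without WT 2 only.

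Of 57 tested genes described as lipid transfer proteins 3 were lower in quintuple, EARLI1, LTP2 and AT5G01870, and none was higher, where 0.174% of all tested genes were called lower. This family too was looked at because it had 3 or more called members. The median log2 fold change of the 57 was -0.15, against -0.00089 for all tested genes, and without WT 1 the family median was -0.06. LTP2, which acts at the cuticle, had 133.5, 139 and 144 CPM in quintuple, against 275, 270.1 and 261 CPM in WT (log2 -0.95, SE 0.21, adjusted p = 0.0184, and up to 0.139 with a library other than WT 2 left out). AT5G01870 had 30.8, 27.3 and 28.9 CPM in quintuple, against 43.5, 60.2 and 48.6 CPM in WT (log2 -0.80, adjusted p = 0.0266, and up to 0.192 with a library other than WT 1 left out). The groups lay apart in both, and without WT 1 a single gene of this family was called.

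Root markers were looked at beside these falls. The 9 listed genes summed to 1.21, 1.91 and 2.24 CPM in quintuple, against 4.18, 4.25 and 2.59 CPM in WT. Most of that was WOX5 (0.947, 1.63 and 1.88 CPM in quintuple, against 3.44, 4.06 and 2.31 CPM in WT, adjusted p = 0.228). PLT1, EXP7, COBL9 and RHD6 had no read in any of the 6 libraries. PRP3 had 0.0707 to 0.158 CPM in quintuple, against 0.0945 to 0.186 CPM in WT. NRT2.1 had 0.105, 0.212 and 0.0896 CPM in quintuple, against 0.557, 0 and 0 CPM in WT. CASP1 had reads in quintuple 3 (0.179 CPM) and WT 3 (0.136 CPM) alone, and PLT2 in WT 2 alone (0.0945 CPM). The part of root cells in these falls was not tested further.

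In a further set of falls WT 1 was the highest WT library. PXMT1 (AT1G66700), a methyltransferase gene, had no read in quintuple, against 35.7, 0.189 and 0.816 CPM in WT. Over all libraries it was at least 163-fold lower (adjusted p = 0.0130), and without WT 1 it was not called (adjusted p = 0.697). AT4G16260, a glycosyl hydrolase, had 0.316, 0.141 and 0.269 CPM in quintuple, against 48.0, 0.945 and 1.22 CPM in WT (log2 -6.03, adjusted p = 0.0120, and log2 -2.11, adjusted p = 0.997, without WT 1). GSTF7, a glutathione transferase, had 2.31, 2.26 and 2.06 CPM in quintuple, against 73.3, 4.25 and 7.96 CPM in WT (log2 -3.67, adjusted p = 0.0437, and log2 -1.47, not called, without WT 1). NIT2, a nitrilase, had 0.421, 0.353 and 1.25 CPM in quintuple, against 37.6, 1.23 and 2.38 CPM in WT (log2 -4.40, adjusted p = 0.0156, and log2 -1.50, not called, without WT 1), and is the one called gene whose groups overlapped. HCHIB, a basic chitinase, had 2.89, 3.89 and 3.58 CPM in quintuple, against 64.5, 8.50 and 17.4 CPM in WT (log2 -3.12, adjusted p = 0.00102, and log2 -1.92, adjusted p = 0.0849, without WT 1). GRP9, a glycine-rich protein gene, had 2 reads in quintuple replicate 1, 1 in replicate 2 and none in replicate 3, against 5.57, 0.850 and 1.84 CPM in WT, a WT to quintuple ratio of 39.3 (95% counting interval 13.1 to 194, adjusted p = 0.0401). Without WT 1 its fitted change was log2 -4.19, against -5.18 with all libraries (adjusted p = 0.390). EARLI1 (AT4G12480), the neighbour of AZI1, had 0.105, 0.283 and 0.269 CPM in quintuple, against 5.01, 0.756 and 4.42 CPM in WT (log2 -3.98, adjusted p = 0.0279). WT 3 was nearly as high as WT 1 there, and without WT 1 the change was log2 -3.62 (adjusted p = 0.160). PXMT1, AT4G16260 and GSTF7 also lost their calls without any 1 quintuple library, NIT2 without quintuple 1 or 2, and GRP9 and EARLI1 without WT 3 or any quintuple library. In the same library the jasmonate and wounding list stood at 1295 CPM, and beyond the values without WT 1 its part in these falls was not tested.

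The stress and hormone lists gave no call. The 16 wounding and jasmonate genes had a median log2 fold change of -1.17, and of -0.21 without WT 1. The 11 rapid stress genes had a median of -0.57, and of 0.37 without WT 1, so that the sign turned with that library. For 13 salicylic acid genes the median was -0.66, and -0.12 without WT 1. Wound-responsive LOX2 had 26.7, 24.9 and 43.9 CPM in quintuple, against 376, 53.5 and 75.4 CPM in WT (adjusted p = 0.554). The dark-induced gene DIN10, which responds to sugar starvation, had 406, 213 and 75.2 CPM in quintuple, against 45.7, 22.1 and 30.0 CPM in WT. Those groups lay apart, with a wide spread within quintuple, and the gene was not called (log2 2.83, SE 0.86, adjusted p = 0.227). DIN11 of the same list went the other way, with 5.89, 8.98 and 6.81 CPM in quintuple, against 91.6, 12.1 and 8.91 CPM in WT. DIN11 was not called (log2 -2.37, adjusted p = 0.0539), and without WT 1 its change was log2 -0.54. Among the 4 tested genes of that list 3 values were above 0 and 1 below. GA20OX2, which makes gibberellin precursors, had 16.1, 10.4 and 5.38 CPM in quintuple, against 3.62, 4.35 and 3.40 CPM in WT (log2 1.5, adjusted p = 0.0629). The other 20 tested gibberellin genes did not pass either, nor did the 13 flavonoid genes (median log2 -0.46), 16 glucosinolate genes (-0.12), 10 clock genes (0.21), 9 cell-cycle genes (-0.05) or 19 Polycomb, trithorax and CHD genes (0.06).

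Positions of called genes were set against those of the mutated loci. Within 100 annotated genes on either side of the 5 loci, 4 of 565 tested genes were called (0.708%), against 0.404% of all tested genes. They were AT2G22420, 23 genes before SVP, BXL3, 54 genes before FLC, AT5G10740, 84 genes after FLC, and YSL7, 36 genes after FT. All 4 were higher in quintuple. Chromosome 4 had the highest share of called genes among the 5 chromosomes (0.638% of 2976) and chromosome 1 the lowest (0.273% of 5122).

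Most rises were present at every later age. The comparisons at 4, 5 and 6 weeks use other libraries than that at 3 weeks. Of the 45 genes higher at 3 weeks, 38 were called higher at 4 weeks, 36 at 5 weeks and 36 at 6 weeks, where 7.52%, 2.56% and 2.82% of all tested genes were called higher. Of the 34 lower genes, 25 were called lower at 4 weeks, 11 at 5 weeks and 7 at 6 weeks, against 4.83%, 4.30% and 3.48% of all tested genes. The median log2 fold change of the higher genes was 1.30 at 3 weeks, 1.17 at 4 weeks, 1.22 at 5 weeks and 1.18 at 6 weeks. That of the lower genes was -2.64, -2.23, -1.36 and -0.75 in week order, of which 1 gene at 5 weeks and 2 at 6 weeks had no read in either genotype. Both sets were chosen by their values at 3 weeks, which can enlarge the 3-week medians. Without WT 1 of 3 weeks, 21 of the 45 higher and 15 of the 34 lower genes kept their call. The parts of this choice and of WT 1 in the smaller later medians were not tested. At all 4 ages 30 higher and 7 lower genes were called in the same direction. FD averaged 102 ± 10.4 CPM in quintuple and 33.9 ± 1.27 CPM in WT at 6 weeks (SD, n = 3 each), with log2 fold changes of 0.98, 0.87, 1.14 and 1.60 in week order. CYP706A3 averaged 145 ± 32.0 CPM in quintuple and 41.9 ± 5.80 CPM in WT at 6 weeks, with log2 fold changes of 1.71, 1.21, 1.28 and 1.79. QQS stayed between 19.6 and 30.9 CPM in quintuple means, against 0.251 to 0.281 CPM in WT means, over the 4 ages. BRC1 averaged 9.07 ± 1.66 CPM in quintuple and 1.61 ± 0.211 CPM in WT at 4 weeks (log2 2.51, adjusted p = 4.19e-06). TEL2, an RNA-binding protein gene related to maize terminal ear1, averaged 1.60 ± 0.358 CPM in quintuple and 0.561 ± 0.185 CPM in WT at 3 weeks (adjusted p = 0.01, and up to 0.206 without WT 1, WT 2 or quintuple 1), and 5.75 ± 0.208 and 1.73 ± 0.148 CPM at 4 weeks.

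**Figure D5:**
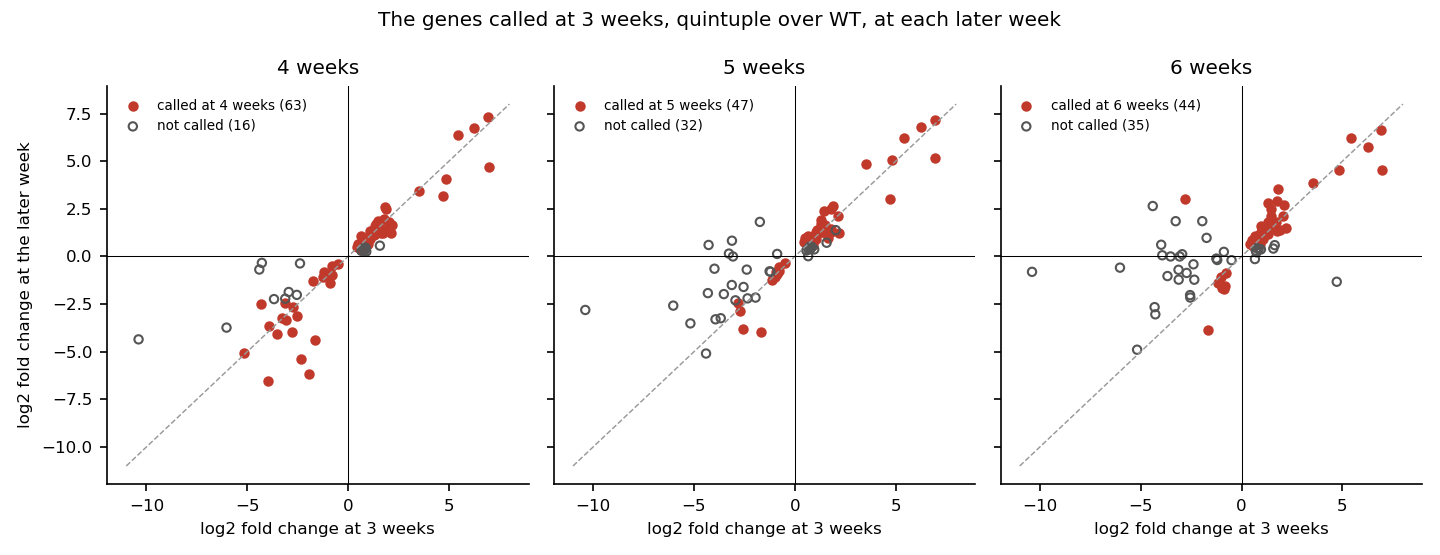
Each point is one of the 79 genes called at 3 weeks, with its log2 fold change of quintuple over WT at 3 weeks on the x axis and at 4, 5 or 6 weeks on the y axis; filled points were called at the later week and the dashed line marks equal change. Rises stay near the line in all panels, while many falls lie near 0 at 6 weeks.

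Genes called at later ages were also looked up at 3 weeks. Of 1471 genes higher at 4 weeks, 79.9% had a positive log2 fold change at 3 weeks, against 49.7% of all tested genes, with a median of 0.11 at 3 weeks and 0.53 at 4 weeks. Of 946 genes lower at 4 weeks, 80.1% were negative at 3 weeks, against 50.2% of all tested genes, with medians of -0.16 and -0.73. For genes called at 5 weeks the same sign was seen at 3 weeks in 87.4% of 500 higher and 76% of 842 lower genes. For genes called at 6 weeks it was seen in 75% of 551 higher and 63.2% of 680 lower genes. Over all tested genes the median absolute log2 fold change was 0.11 at 3 weeks and 0.21 at 4 weeks, while the median SE was 0.16 and 0.15. No gene passed a test of the effect at 3 weeks minus that at 4 weeks (0% of tested genes). There 2127 genes had an unadjusted p under 0.05, and the smallest adjusted p was 0.0730. DESeq2 called 7 genes, and a fit with a replicate block within week called more, as given below. The 5 genes of smallest adjusted p were XTH31, APR2, PAO5, AT1G67590 and AT2G38390. APR2, of sulphate assimilation, averaged 131 ± 16.1 CPM in quintuple and 90.5 ± 8.08 CPM in WT at 3 weeks, against 59.0 CPM in quintuple and 134 CPM in WT at 4 weeks (difference of log2 1.72, adjusted p = 0.0730).

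The effect at 3 weeks differed from that at 6 weeks in 204 genes (1.04%), of which 194 were called at 6 weeks and 4 at 3 weeks. The 4 were AT2G38380, GH9B13, NIT2 and PIF3. AT2G38380 was lower in quintuple at 3, 4 and 5 weeks and higher at 6 weeks, where it averaged 2.16 ± 0.408 CPM in quintuple and 0.341 ± 0.273 CPM in WT (log2 3.03, adjusted p = 0.00142). Its level in WT was 20.9 ± 1.94 CPM at 3 weeks, so the genotypes came to differ in the opposite sense at a far lower level (difference of log2 -5.83, adjusted p = 3.01e-05). GH9B13 averaged 233 ± 22.4 CPM in quintuple and 196 ± 35.8 CPM in WT at 6 weeks, and PIF3 33.4 ± 2.18 CPM in quintuple and 36.6 ± 3.39 CPM in WT, neither called there. SPL4, an age-pathway factor related to SPL9, did not pass at 3 weeks, with 0.684, 0.141 and 0.179 CPM in quintuple, against 1.02, 0.850 and 0.680 CPM in WT (log2 -1.15, adjusted p = 0.553). At 6 weeks SPL4 averaged 15.0 ± 4.12 CPM in quintuple and 2.08 ± 0.111 CPM in WT, and the difference between ages was log2 -4.01 (adjusted p = 0.000166).

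In qem2 at 3 weeks, given as levels because the same WT libraries would serve both lines, FD had 26.1, 31.1 and 28.7 CPM, SVP 32.6, 32.9 and 45.9 CPM and BXL3 29.3, 30.0 and 28.4 CPM. QQS had 3.79, 4.46 and 3.92 CPM there, below every quintuple library. In chr4-2, whose label names none of the 5 loci, QQS had 0.150, 0 and 0.269 CPM and BXL3 1.5, 1.65 and 0.862 CPM.

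The authors' deposited table for this comparison lists 46 genes, 20 higher and 26 lower. Of these 34 were among the 79 called here, which is 73.9% of the listed and 43.0% of the called genes. Among the listed genes the change smallest in size was log2 -1.007 (ESM1) in the authors' deposited table. The largest adjusted p listed there was 0.00932 (NIT2). Calls here used an adjusted p under 0.05 and no limit on the fold change. These shares thus compare sets with unlike limits, and a called gene absent from the listed genes is not by itself a disagreement. The 12 listed genes that were not called here had the same sign in both and included FLC, TFL1 and GA2OX2, a gibberellin-inactivating enzyme with 15.8, 13.0 and 10.7 CPM in quintuple, against 7.34, 5.95 and 6.12 CPM in WT (adjusted p = 0.163 here and 0.00571 in the authors' deposited table).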

How the data were processed

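Read counts per gene were used as deposited by the authors, as whole numbers in 48 columns. TopHat2, SAMtools, HTSeq, DESeq2 and the TAIR10 build are listed per the submitters' processing notes, without versions or settings, and whether counting used strand is not given in the sources used here, so antisense or overlapping genes may share reads. Log2 fold changes and adjusted p-values from the authors' deposited tables are printed only where so named. The comparison and its gene lists were chosen with earlier results of these data known.

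Counts were fitted with edgeR 4.0.16 (limma 3.58.1, R 4.3.3): TMM factors, filterByExpr (minimum count 10, total 15), estimateDisp, robust glmQLFit and glmQLFTest over 47 libraries in 16 groups, with Benjamini-Hochberg adjustment over 19566 of 27206 genes. The common biological coefficient of variation was 14.7%. The column labelled qem2 5 weeks replicate 3 equals quintuple 5 weeks replicate 3 at all 27206 genes and was left out. Replicates are separate pools of apices per the labels. Genes were named by rule: the mutated loci, and by size 12 rises and 12 falls (groups apart, at least 1 CPM in the higher group), the 10 smallest adjusted p, up to 4 called members per list, the 5 smallest adjusted p per age difference, up to 10 genes called at all ages and families with 3 or more called members; other genes were named after their values were seen. Families were taken from RefSeq descriptions. Gene positions and promoters are from RefSeq TAIR10.1, whose names matched 26719 of 27206 identifiers (98.2%).

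On counts simulated once for this comparison (19482 genes) the procedure recovered 43.3% of genes changed 1.5-fold, 76.1% changed 2-fold and 100% changed 4-fold. There 2.01% of its calls were false. The changed genes were all at 1 CPM or more, and counts were drawn independently, so no simulated library stood apart as WT 1 did. These shares therefore do not cover genes at lower levels or the deviation of WT 1. Tried in turn were DESeq2 1.42.0, RLE factors, no filter on low counts, the compared libraries alone, a replicate block, a log2 fold change of at least 1, an adjusted p under 0.01, all 48 columns and each library left out. List medians without WT 1 were added after seeing the data.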

Additional observations from a re-analysis of the deposited data

Results flagged for a closer look

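Genes whose effect of genotype at 3 weeks differed from that at 6 weeks by a test of the difference itself (edgeR, adjusted p under 0.05) are given as the log2 effect at 3 weeks minus that at 6 weeks. Among genes called at 3 weeks these were AT2G38380 (-5.83), GH9B13 (-1.12), PIF3 (0.80) and NIT2 (-7.05). At 3 weeks NIT2 had 37.6 CPM in WT 1, against 1.23 and 2.38 CPM in the other WT libraries. Without WT 1 of 3 weeks its difference was -4.15 (adjusted p = 0.232), and the call was lost in 9 of the 12 fits that each left out 1 library of 3 or 6 weeks. PIF3 lost its call in 4 of the 12 (without WT 1 or quintuple 2 of 3 weeks, or WT 1 or quintuple 1 of 6 weeks), with an adjusted p of up to 0.0824, and the other 6 genes kept theirs in all 12. Among genes not called at 3 weeks, the 4 with the smallest adjusted p were the WD40-repeat gene AT1G49450 (-4.48), the TCP factor gene TCP1 (-2.48), SPL4 (-4.01) and AT4G22485 (2.81), which encodes a protein of the lipid transfer class. AT1G49450 averaged 6.12 ± 1.66 CPM in quintuple and 0.178 ± 0.0802 CPM in WT at 6 weeks, TCP1 10.9 ± 1.54 CPM in quintuple and 3.04 ± 1.22 CPM in WT, and AT4G22485 551 ± 340 CPM in quintuple and 4495 ± 490 CPM in WT (SD, n = 3 each).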

How the results depend on the processing

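On simulated counts 43.3% of 1.5-fold changes were recovered, so a change of that size can be missed. That share is for genes at 1 CPM or more, with no library standing apart. The parts of depth and of the number of libraries in it were not tested. RLE factors, no count filter, DESeq2 and all 48 columns gave 39 to 55 higher and 30 to 50 lower genes. A fit of the compared libraries alone called 94 higher and 90 lower, and shared 51 of the 79 genes. A log2 fold change of at least 1 left 26 higher and 28 lower genes, and an adjusted p under 0.01 left 26 higher, 11 lower and 59 for 3 minus 6 weeks. With 1 library left out the counts were 21 to 50 higher and 9 to 48 lower: without WT 1, 22 and 15; without WT 2, 32 and 48; without WT 3, 23 and 29; without quintuple 1, 21 and 9; without quintuple 2, 26 and 12; without quintuple 3, 50 and 22. For 3 minus 4 weeks no gene was called with any library left out; DESeq2 called 7 and the compared libraries alone 1. For 3 minus 6 weeks, 68 to 241 genes were called with a library left out (68 without WT 1 of 6 weeks, 71 without quintuple 1 of 6 weeks, 90 without quintuple 1 and 114 without WT 1 of 3 weeks), 310 with DESeq2. A replicate block within week called 83 higher, 57 lower, 92 for 3 minus 4 weeks and 409 for 3 minus 6 weeks. Residuals of equal-numbered quintuple and WT libraries of 3 weeks correlated at 0.0598, 0.142 and 0.0424, of which only 1 is over 0.1. Those of unequal numbers ranged from -0.110 to 0.0441. The labels do not state that equal numbers pair libraries, and whether they do was not tested further. The cause of the changes in counts between fits was not tested. Of 54 named genes with a test, 23 kept direction and call in each other fit that gave them a value (the compared libraries alone gave one for 47, and both stricter thresholds were applied to the counts only); 1 changed sign, AT4G22485, not called at 3 weeks, which ranged from log2 -0.3444 to 0.009657 with a library left out, the highest being without WT 2.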
